A study of Mus musculus with 4 samples.

Results

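The Derlin family of the mouse has 3 members, Derl1, Derl2 and Derl3, and each was found by its symbol among the 32286 features of every library. Raw unique molecular identifier (UMI) counts of these 3 genes were summed per library and cell type in nuclei of cortex and hippocampus from mice of 5 weeks of age. There were 4 libraries, each from 1 mouse. There were 2 genotype labels, with 2 libraries each: Sel1L flox/flox (written fl/fl 1 and fl/fl 2 here) and Sel1L Syn-Cre (SynCre 1 and SynCre 2). Both labels stand for mice with floxed Sel1l alleles on C57BL/6J, and the Syn-Cre mice also carry Cre driven by the Synapsin I promoter. This promoter is active in postmitotic neurons, so glia and vessels are not its intended target. Cre UMIs were nevertheless counted in oligodendrocyte precursor-like nuclei too, as given below. Nuclear RNA was counted from 3′ ends, so a transcript that lost a floxed exon is counted like an intact one.

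Derlins are membrane proteins of the endoplasmic reticulum (ER), related to rhomboid proteases but without catalytic activity. They sit beside SEL1L and the ubiquitin ligase HRD1 in the complex that moves misfolded proteins out of the ER for degradation by the proteasome, a process called ER-associated degradation. Derlin-1 also links to the ATPase p97 through VIMP, the product of Selenos. Derl1 and Derl2 are expressed in most tissues, whereas Derl3 is known from secretory tissues. Derl3 is also a gene induced by the unfolded protein response, the transcriptional answer to misfolded proteins in the ER. Such induction is not claimed here for Derl3 alone. The comparison asked which of the 3 genes differed between the labels, and in which neurons, glia and vascular cells.

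After filtering, 6813 to 11139 nuclei remained per library, with 66315119 to 101342728 UMIs and medians of 7255 to 8407 UMIs per nucleus, and 10 to 34 barcodes were shared by any pair of libraries. Clusters were named from markers, and the name of each type carries "-like" because it rests on markers alone. The 23 named types reported here, 17 of them neuronal, had at least 10 nuclei in every library. Immature oligodendrocyte-, pericyte- or smooth muscle- and choroid plexus-like nuclei were also named but had fewer in some library and were not tested. Derl3 had 1 UMI in each SynCre library in the immature oligodendrocyte-like nuclei. It had 2 in SynCre 1 in the choroid plexus-like nuclei. Sel1l, the targeted gene, was not lower in the libraries labelled Syn-Cre: its CPM, counts scaled to the UMIs of the sum, were 94.9 and 89.0 in neuron-like nuclei of the fl/fl libraries and 152 and 128 in the SynCre libraries. Cre UMIs numbered 411 in fl/fl 1, 0 in fl/fl 2, 236 in SynCre 1 and 222 in SynCre 2. Xist, the RNA of the inactive X chromosome, had 0.476 and 2.21 CPM in neuron-like nuclei of fl/fl 1 and SynCre 1 and 1550 and 1427 CPM in those of fl/fl 2 and SynCre 2, so each label had 1 mouse of each sex pattern, in the same order. The Cre count of fl/fl 1 goes against its label, so groups are called by their labels throughout and results without that library are given beside them.

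Derl3 (ENSMUSG00000009092) lies on the plus strand at chr10:75893413-75895941 (GRCm38, GENCODE vM21), Derl1 (ENSMUSG00000022365) on the minus strand at chr15:57869502-57892448 and Derl2 (ENSMUSG00000018442) on the minus strand at chr11:71007164-71019841. The first 231 bases of Derl2, at its 5′ end, overlap Mis12 on the opposite strand. Reads of this overlap were not examined, and counting was from 3′ ends. The RefSeq promoter windows of Derl3 and of 2 starts of Derl2 are shown because the genes differ in the size of their change between the labels. Each window runs from 250 bases before to 50 after the start (GRCm38.p6, 5′ to 3′ on the gene's strand). Capitals mark an ER stress response element (ERSE), a sequence bound by ATF6 together with NF-Y.
Derl3, chr10:75893148-75893447, plus strand: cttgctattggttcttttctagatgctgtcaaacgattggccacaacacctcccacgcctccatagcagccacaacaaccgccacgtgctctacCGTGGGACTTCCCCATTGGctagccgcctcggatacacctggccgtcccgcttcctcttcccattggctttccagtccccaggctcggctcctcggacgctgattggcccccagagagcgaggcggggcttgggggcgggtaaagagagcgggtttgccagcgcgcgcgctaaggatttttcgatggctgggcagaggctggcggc
Derl2, chr11:71019792-71020091, minus strand: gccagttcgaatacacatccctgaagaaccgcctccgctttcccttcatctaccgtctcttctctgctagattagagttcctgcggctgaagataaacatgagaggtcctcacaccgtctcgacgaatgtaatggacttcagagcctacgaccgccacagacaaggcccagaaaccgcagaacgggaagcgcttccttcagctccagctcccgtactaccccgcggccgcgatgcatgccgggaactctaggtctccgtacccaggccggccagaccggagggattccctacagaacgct
Derl2, chr11:71019254-71019553, minus strand: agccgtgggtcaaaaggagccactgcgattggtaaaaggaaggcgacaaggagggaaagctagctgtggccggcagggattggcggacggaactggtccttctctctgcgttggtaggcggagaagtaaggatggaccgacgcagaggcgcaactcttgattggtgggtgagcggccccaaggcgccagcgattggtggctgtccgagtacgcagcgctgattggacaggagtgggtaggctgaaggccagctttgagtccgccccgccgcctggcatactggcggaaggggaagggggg
The ERSE was searched as CCAAT and CCACG with 9 bases of any kind between them, on both strands, and the Derl3 window held it on its minus strand, at bases 95 to 113 of the window, from position -156 relative to the start. This match includes 1 of the 5 CCAAT boxes and 1 of the 3 CCACG boxes of that window. An ERSE stood in 39 of 32851 promoter windows of the same length (0.119%). Neither Derl2 window held an ERSE, an ERSE-II (ATTGG and CCACG with 1 base between them, in 0.0365% of windows) or a UPRE (TGACGTGG, in 0.676%), although the second Derl2 window held 5 CCAAT boxes and 1 CCACG box. CCAAT alone stood in 37.4% of all windows and CCACG in 32.8%. A match is a description of the letters and not a binding site.

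Of the 3 members, Derl3 gave the largest differences between the labels. Over all neuron-like nuclei it had 45 UMIs in fl/fl 1, 33 in fl/fl 2, 1017 in SynCre 1 and 646 in SynCre 2, which is 0.510, 0.542, 17.01 and 10.5 CPM. Both SynCre libraries lay far above both fl/fl libraries, and SynCre 1 was the higher of the pair. The log2 fold change was 4.66 ± 0.29 (SE, n = 2 per label; edgeR quasi-likelihood test with Benjamini-Hochberg adjustment, adjusted p = 0.0068), in a comparison where 0.114% of 20174 genes were called higher. By p-value Derl3 stood first of those genes. Across the 23 named types it passed the filter on low counts in 11 and was called higher in 8, lower in 0. Both SynCre libraries were above both fl/fl libraries in 18 of the 23 types. For all genes, 0.765% of gene-by-type tests were called higher and 20% of gene-by-type values had both SynCre libraries above both fl/fl libraries. The highest fl/fl count of Derl3 in any of the 23 types was 9 UMIs, and 6 types had 0 UMIs in both fl/fl libraries, so a type entered the test mainly through its SynCre libraries.

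**Figure D1:**
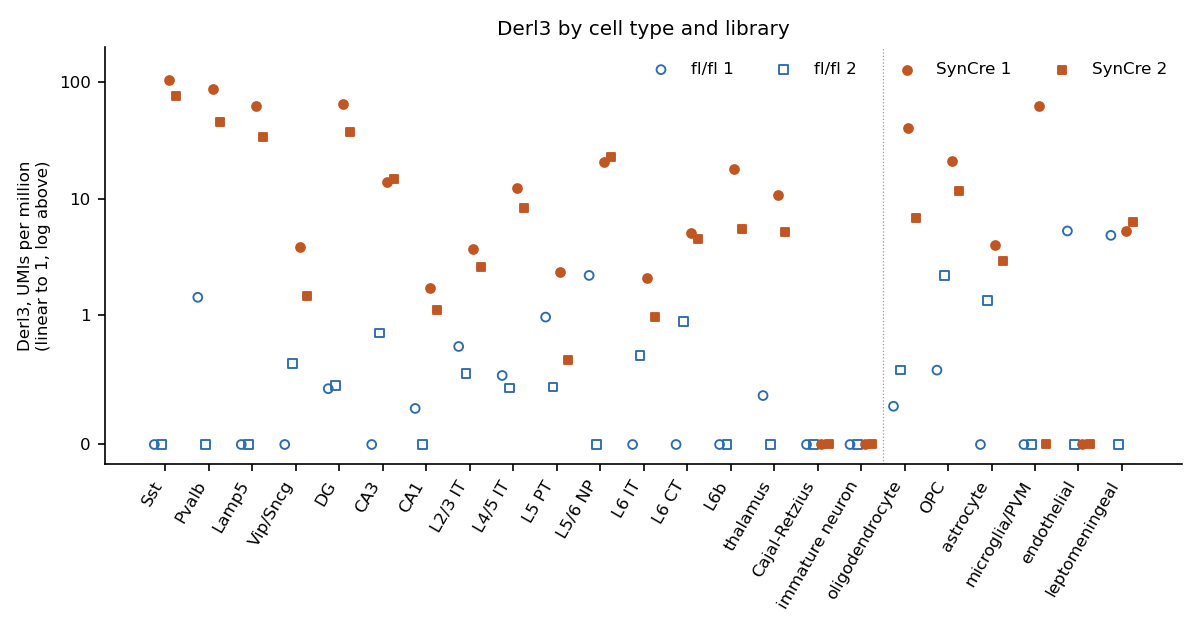
Derl3 level (CPM, symmetric log axis that is linear up to 1) in each of the 4 libraries for the 23 named types, 1 point per library. The SynCre points of the Sst-like type lie at 103 and 75.8 CPM and its fl/fl points at 0; the SynCre 1 point of microglia or perivascular macrophages, at 62.9 CPM, stands for 3 UMIs.

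Among GABAergic interneurons, Derl3 rose in the Sst-, Pvalb- and Lamp5-like types. In Sst-like nuclei, which express somatostatin, it went from 0 UMIs in each fl/fl library to 191 in SynCre 1 and 125 in SynCre 2 (103 and 75.8 CPM). That is at least 146-fold higher, taking 3 counts over the fl/fl group as the floor (adjusted p = 6.3e-08 in edgeR), and 4.68% of genes were called higher in this type. Derl3 had the smallest p of the genes tested in Sst-like nuclei, but it entered that test only through the SynCre libraries. With 0 fl/fl UMIs the fitted fold change rests on the prior count, so its place among the genes by fold change says little. In Pvalb-like nuclei, the parvalbumin interneurons, its level was 1.42, 0, 86.6 and 45.8 CPM in fl/fl 1, fl/fl 2, SynCre 1 and SynCre 2. The log2 fold change was 6.15 ± 0.52 (adjusted p = 4.3e-05 in edgeR), with 2.31% of genes called higher. In Lamp5-like nuclei it had 0 UMIs in both fl/fl libraries, 56 in SynCre 1 and 33 in SynCre 2, at least 37.0-fold higher (adjusted p = 0.00046 in edgeR; 0.745% of genes called higher). In Vip/Sncg-like interneurons 0, 1, 7 and 2 UMIs were counted and the gene stayed below the filter. The SynCre levels there, 3.82 and 1.47 CPM, did not overlap the fl/fl levels of 0 and 0.627.

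In the hippocampus Derl3 was called higher in granule neurons of the dentate gyrus (DG). Derl3 had 3 and 2 UMIs in the fl/fl libraries and 247 and 125 in the SynCre libraries, or 0.431, 0.454, 65.4 and 37.0 CPM. The log2 fold change was 6.73 ± 0.42 (adjusted p = 1.8e-06 in edgeR; 1.86% of genes called higher). It was the largest of all genes tested in DG-like nuclei. With 3 and 2 fl/fl UMIs the gene entered that test through the SynCre libraries, so this rank says little. CA3-like nuclei had 0 and 2 UMIs against 35 and 36 (0, 0.862, 13.9 and 14.6 CPM), with no overlap between labels. Their log2 fold change of 5.04 ± 0.64 missed the threshold (adjusted p = 0.059 in edgeR) and passed it under 8 of the alternatives tried, with an adjusted p of up to 0.65 when a fl/fl library was left out. CA1-like nuclei had 2, 0, 6 and 4 UMIs, at most 1.70 CPM, and were not tested. Cajal-Retzius-like and immature neuron-like nuclei held no Derl3 UMI in any library.

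Among cortical projection neurons Derl3 was called in the L4/5 IT- and L5/6 NP-like types. In L4/5 IT-like nuclei, neurons projecting within the telencephalon, Derl3 was at 0.533 and 0.437 CPM in the fl/fl libraries and at 12.4 and 8.34 CPM in the SynCre libraries. It differed by a log2 fold change of 4.29 ± 0.44 (adjusted p = 0.0026 in edgeR; 1.21% of genes called higher). In L5/6 NP-like nuclei, the near-projecting neurons, it went from 6 and 0 UMIs to 35 and 43, that is from 2.19 and 0 to 20.5 and 22.6 CPM. This is a log2 fold change of 3.84 ± 0.51 (adjusted p = 0.0040 in edgeR), in a type where 0.0347% of genes, or 4, were called higher. Derl3 was thus among the few calls of that type. L2/3 IT-like nuclei had 0.757, 0.550, 3.71 and 2.61 CPM and a log2 fold change of 2.20 ± 0.45 that missed the threshold (adjusted p = 0.085 in edgeR). L6 CT-like nuclei, which project to the thalamus, had 0, 0.948, 5.05 and 4.49 CPM and a log2 fold change of 3.47 ± 0.72 (adjusted p = 0.097 in edgeR). This value was called with either fl/fl library left out, in fits that measure no spread within the fl/fl label. L6b-like nuclei had 0 UMIs in both fl/fl libraries and 17 and 5 in the SynCre libraries, at least 8.14-fold higher and below the filter. In L5 PT-like nuclei, the pyramidal tract neurons, the counts of 3, 1, 7 and 2 UMIs overlapped between labels. An unnamed neuronal cluster led by Il1rapl2 and Rxfp2 had 3, 1, 18 and 15 UMIs and a log2 fold change of 3.10 ± 0.63 (adjusted p = 0.037 in edgeR; 0.487% of genes called higher).

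**Figure D2:**
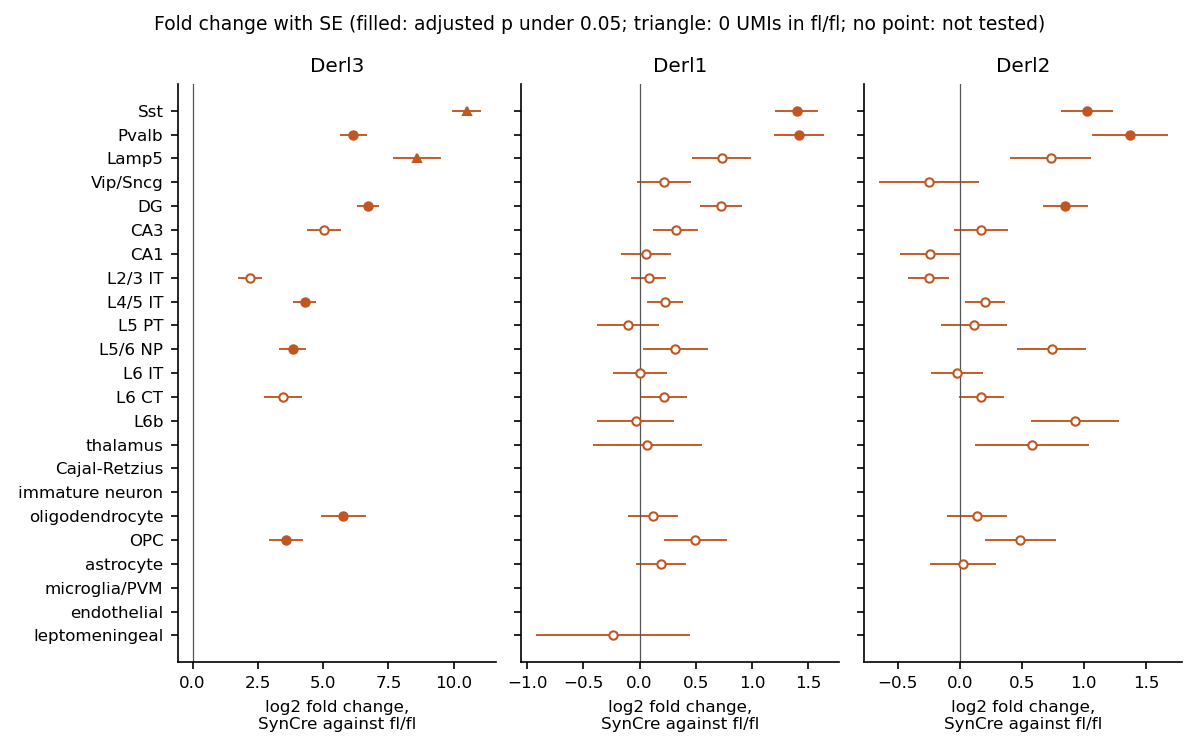
Log2 fold change of SynCre over fl/fl with its SE for Derl3, Derl1 and Derl2 in each named type where the gene was tested; filled points passed the threshold of 0.05 on the adjusted p and triangles mark types with 0 fl/fl UMIs, where the fitted value is no bound. Derl3 lies between 2.20 and 10.50, while Derl1 and Derl2 lie between -0.25 and 1.42.

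Derl3 was also higher in cells of the oligodendrocyte lineage. In oligodendrocyte precursor (OPC)-like nuclei it had 1, 3, 24 and 12 UMIs, or 0.574, 2.18, 21.2 and 11.6 CPM. The log2 fold change was 3.58 ± 0.64 (adjusted p = 0.0020 in edgeR; 1.8% of genes called higher), and the call was lost without SynCre 1 (adjusted p = 0.154). In oligodendrocyte-like nuclei the counts were 2, 2, 44 and 7 UMIs, or 0.295, 0.575, 40.4 and 6.80 CPM, so the level in SynCre 1 stood well above that in SynCre 2. The log2 fold change was 5.78 ± 0.88 (adjusted p = 0.013 in edgeR; 0.838% of genes called higher). Without SynCre 1 the gene no longer passed the filter in this type, and with doublets kept the adjusted p was 0.082. The type held 1848 and 1173 nuclei in the fl/fl libraries and 355 and 365 in the SynCre libraries.

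The summed CPM of 6 neuron markers in oligodendrocyte-like nuclei was 4.89% (SynCre 1) and 5.42% (SynCre 2) of its value in neuron-like nuclei. Their Derl3 CPM was 238% and 64.5% of the neuronal one. For OPC-like nuclei the neuron markers stood at 8.56% and 9.50% and Derl3 at 124% and 110%. Oligodendrocyte-like nuclei that held a Derl3 UMI had 520 and 524 CPM of neuron markers, against 699 and 787 CPM over all nuclei of the type. These values come from 39 nuclei in SynCre 1 and only 7 in SynCre 2. The part of neuronal RNA in the Derl3 values was not tested. Both SynCre libraries had 0 Cre UMIs in oligodendrocyte-like nuclei, from 1088346 and 1029623 UMIs. At the Cre levels of neuron-like nuclei, 3.56 and 3.39 CPM, such sums would hold only a few, so the 0 says little. OPC-like nuclei held 31 Cre UMIs in fl/fl 1, 0 in fl/fl 2, 19 in SynCre 1 and 12 in SynCre 2. Nuclei with a Cre UMI were 19 of 280 OPC-like and 190 of 5245 neuron-like nuclei in SynCre 1. In SynCre 2 they were 12 of 241 and 186 of 5297, so Cre was found in a larger part of the OPC-like nuclei than of all neuron-like nuclei pooled. Such shares rise with depth, and the OPC-like nuclei were shallower. Their median UMIs were 3801.5 and 3881 in SynCre 1 and SynCre 2, against 9804 and 9983 in neuron-like nuclei. Single neuron types lay on both sides. In SynCre 1 and SynCre 2, Cre was in 53 of 218 and 53 of 208 Pvalb-like and 29 of 171 and 19 of 162 Sst-like nuclei. In CA1-like nuclei it was in 1 of 279 in each. The OPC-like nuclei with Cre had 39.7 CPM of Derl3 against 19.4 in the others in SynCre 1, and 18.9 against 11.2 in SynCre 2, from 4 and 1 Derl3 UMIs. The part of these Cre UMIs in the Derl3 values was not tested. In astrocyte-like nuclei Derl3 had 0, 1, 10 and 3 UMIs, and in the SynCre libraries its CPM was 23.3% and 27.9% of the neuronal value, with neuron markers at 6.61% and 8.19%. In vascular cells few Derl3 UMIs were counted, from small sums, and the gene was below the filter. Endothelial-like nuclei had 1 UMI in fl/fl 1 and 0 elsewhere. Vascular leptomeningeal-like nuclei had 1, 0, 2 and 1, or 4.83, 0, 5.27 and 6.31 CPM. Microglia- or perivascular macrophage-like nuclei had 3 UMIs in SynCre 1 and 0 elsewhere, from 13 to 45 nuclei a library, too few to show a difference. A larger unnamed cluster of 2139 shallow nuclei, led by Inpp5d and Arhgap45 and holding 6 of 7 microglia markers, had 1, 0, 5 and 0 Derl3 UMIs (0.652, 0, 5.87 and 0 CPM), which overlapped between labels and stayed below the filter.

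Within the SynCre libraries, the mean Derl3 level (n = 2) was 89.5 ± 19.4 CPM (SD) in Sst-like, 66.2 ± 28.8 in Pvalb-like, 51.2 ± 20.03 in DG-like and 48.1 ± 20.4 in Lamp5-like nuclei. The fifth place was that of microglia- or perivascular macrophage-like nuclei (31.5 ± 44.5), from 3 UMIs in all. Oligodendrocyte-like (23.6 ± 23.8), L5/6 NP-like (21.5 ± 1.44), OPC-like (16.4 ± 6.80) and CA3-like (14.3 ± 0.49) nuclei followed, and CA1-like nuclei (1.41 CPM) came last among the types with any Derl3 UMI. Neighbours in this order overlapped in their 2 libraries, apart from leptomeningeal against L6 CT, L6 CT against astrocyte and CA1 against Cajal-Retzius. Levels were then tested against CA1-like nuclei in a fit of all types with the library as a block. In the SynCre libraries Derl3 was higher than in CA1 in 12 of 22 types, with a log2 difference of 5.66 ± 0.32 for Sst, 5.26 ± 0.33 for Pvalb and 5.00 ± 0.33 for DG, and lower in 0. Since CA1 was the lowest type with any Derl3 UMI, only types without a Derl3 UMI could lie below it. Types differ in many genes, and 30.6% of all gene-by-type tests of this kind were called in either direction. In the fl/fl libraries, 29.8% of tests were called but Derl3 differed from CA1 in 0 of 22 types (0 at an unadjusted p under 0.05). Its fl/fl means were all at or below 2.64 CPM, so at this depth an order of types could not be seen.

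The difference between types in the change itself was tested as a genotype-by-type term against CA1, in which 0.356% of gene-by-type tests were called. For Derl3, 0 of 16 neuronal types were called in edgeR and 2 (Sst and Lamp5) were at an unadjusted p under 0.05. The Sst term was 8.26 ± 2.89 on the log2 scale (adjusted p = 0.15 in edgeR), with 2 and 0 fl/fl UMIs in CA1-like and 0 and 0 in Sst-like nuclei. Whether the Derl3 rise differs in size between neuron types was therefore not settled by this test. For Derl1 and Derl2, which have more counts, some terms were called: Derl1 changed more than in CA1 in Pvalb-like (1.32 ± 0.29, adjusted p = 0.0049) and Sst-like nuclei (1.31 ± 0.29, adjusted p = 0.0047), and Derl2 in DG-like (1.07 ± 0.25, adjusted p = 0.011), Pvalb-like (1.56 ± 0.29, adjusted p = 0.00077) and Sst-like nuclei (1.24 ± 0.29, adjusted p = 0.0072). Of these 5 terms, only that of Derl2 in Pvalb-like nuclei was called with each library left out in turn. Without fl/fl 1 the others had adjusted p-values from 0.147 to 0.199.

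The Derl3 UMIs of the SynCre libraries came from many nuclei, though a minority of the neuron-like nuclei held one. With every neuron-like nucleus thinned to 2000 UMIs, 4 of 7139 and 8 of 5313 nuclei of the fl/fl libraries held a Derl3 UMI (0.056% and 0.151%), against 174 of 5192 and 135 of 5266 of the SynCre libraries (3.35% and 2.56%). Without thinning the shares were 0.612%, 0.619%, 12.96% and 8.95%. In thinned Sst-like nuclei, 0 of 255 and 0 of 184 held one in the fl/fl libraries, which allows shares of up to 1.18% and 1.63%, and 22.9% (95% Wilson interval 17.3 to 29.8) and 13.2% (8.80 to 19.3) in the SynCre libraries. The other types with high levels gave 19.9% and 8.65% (Pvalb), 15.4% and 9.09% (Lamp5) and 12.4% and 9.41% (DG) in SynCre 1 and SynCre 2. Such shares rise with the number of UMIs drawn, and intervals cover counting error only. By protein staining, the paper reports loss of SEL1L in only a subset of cortical neurons. It reports nearly complete loss in CA3 and the dentate gyrus, and SEL1L largely kept in CA1. The part of these regional differences in the shares was not tested. CA1-like nuclei gave 0% and 0.361%, and thinned endothelial-like nuclei gave 0% in all 4 libraries, from 3 to 40 nuclei each. Of the 44 and 33 neuron-like nuclei with Derl3 in the unthinned fl/fl libraries, 1 held 2 UMIs and the rest held 1, while the SynCre libraries had 74 and 35 nuclei with 3 or more and up to 7 in 1 Sst-like nucleus.

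Nuclei of the SynCre libraries that held a Derl3 UMI were compared with those of the same type and library that held none, as a description, since the choice depends on depth. In the cortical projection and CA3 types Derl3-holding nuclei had higher CPM of other ER genes. Ratios are not given here for Lamp5-like nuclei, of which 38 and 25 held Derl3, or OPC-like nuclei, of which 21 and 12 did (SynCre 1 and SynCre 2). For Herpud1, whose product binds HRD1, the ratio of nuclei with to nuclei without Derl3 was 3.79 and 2.38 in L4/5 IT-like, 3.04 and 3.50 in L5/6 NP-like and 3.69 and 2.03 in CA3-like nuclei (SynCre 1 and SynCre 2). For Sel1l it was 2.05 and 2.04, 2.10 and 2.20, and 1.96 and 1.73 in the same order of types. In DG-, Pvalb- and Sst-like nuclei, where Derl3 was highest, the Herpud1 ratios were between 1.02 and 1.16 and those of Hspa5, which encodes the chaperone BiP, between 0.94 and 1.30. Median UMIs were not equal: 13996 against 10025 and 12006 against 9734 in L4/5 IT-like nuclei with and without Derl3, and 7740.5 against 6728 and 7595 against 7186 in DG-like nuclei. Derl1 and Derl2 were higher in Derl3-holding L4/5 IT-like nuclei as well (ratios 1.51 and 1.71, and 1.97 and 2.06). In DG-like nuclei their ratios were 1.02 and 1.67 for Derl1 and 0.99 and 1.08 for Derl2.

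**Figure D3:**
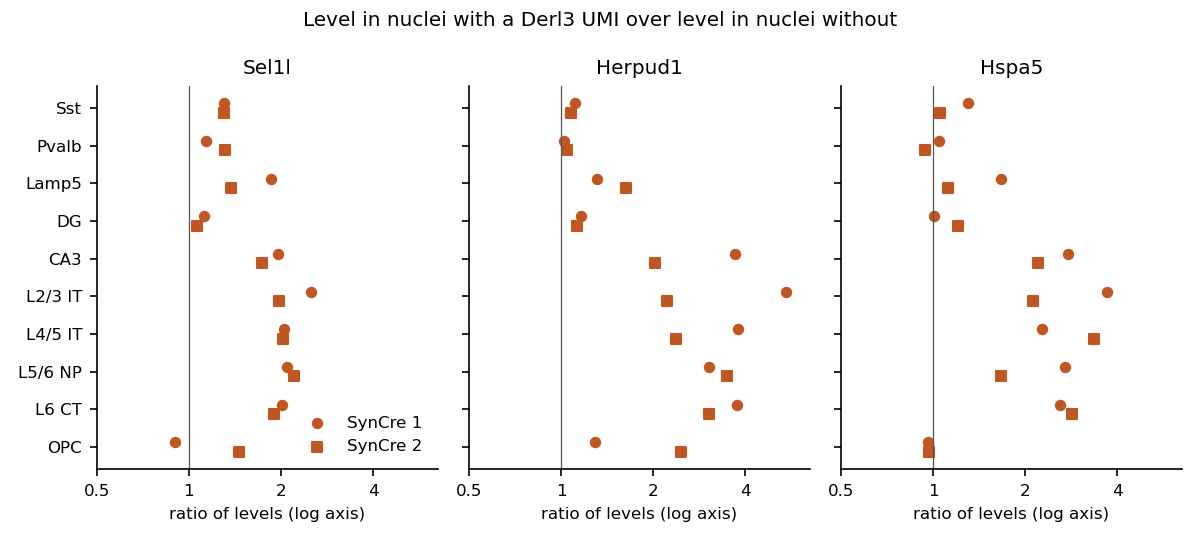
Ratio of CPM in nuclei with a Derl3 UMI to those without one, for Sel1l, Herpud1 and Hspa5, in each type with enough such nuclei and in each SynCre library (log axis; the line is at 1). Points of the cortical projection and CA3 types lie between 1.66 and 5.45, and those of DG, Pvalb and Sst between 0.94 and 1.32. Other types are not covered by these ranges.

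Cre RNA was set beside Derl3 in the same nuclei. In fl/fl 1, 320 neuron-like nuclei held a Cre UMI and had 4 Derl3 UMIs between them, 0.808 CPM against 0.492 CPM in its other neuron-like nuclei. In SynCre 1 the 190 nuclei with Cre had 47.9 CPM of Derl3 against 15.6 in the others, and in SynCre 2 the 186 nuclei had 31.7 against 9.52. Types were not evenly represented among them: 53 of the Cre nuclei of each SynCre library were Pvalb-like. Within single types the direction varied, and none of these values was tested. Cre nuclei had less Derl3 in Pvalb-like (78.6 against 89.9 CPM in SynCre 1 and 37.6 against 49.4 in SynCre 2) and DG-like nuclei (63.6 against 65.4 and 19.1 against 38.5). They had more in CA3-like (39.7 against 11.97 and 28.7 against 12.004) and L4/5 IT-like nuclei (15.7 against 12.2 and 23.4 against 7.24). In Sst-like (89.6 against 107 and 94.7 against 71.8) and Lamp5-like nuclei (35.3 against 66.4 and 49.8 against 32.2) the libraries went opposite ways. Several of these values rest on few counts. In SynCre 1 and SynCre 2 the Cre nuclei held 12 and 5 Derl3 UMIs in DG-like and 7 and 11 in CA3-like nuclei. They held 5 and 12 in L4/5 IT-like and 4 and 4 in Lamp5-like nuclei. Sst-like nuclei of fl/fl 1 with Cre numbered 52 and had 0 Derl3 UMIs, whereas 29 and 19 such nuclei of the SynCre libraries had 37 and 27. Without fl/fl 1 the Derl3 difference kept its direction and its call in all 8 types. That fit has 1 fl/fl library, so it measures no spread within the label, and it called more genes in neuron-like nuclei.

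Derl1 was called in 2 types, against 8 for Derl3, and had smaller fold changes. Over all neuron-like nuclei it had 1606, 1115, 1549 and 1414 UMIs (fl/fl 1, fl/fl 2, SynCre 1, SynCre 2), or 18.2, 18.3, 25.9 and 23.1 CPM. The labels did not overlap, but the log2 fold change of 0.37 ± 0.11 missed the threshold (adjusted p = 0.23 in edgeR). It passed the filter in 19 types and was called higher in 2 and lower in 0, with log2 fold changes from -0.24 to 1.42 and a median of 0.22. For all genes, 0.765% of gene-by-type tests were called higher. Both SynCre libraries were above both fl/fl libraries in 11 of the 23 types and below in 1, beside 20% and 13.7% of all gene-by-type values. In Sst-like nuclei the Derl1 level went from 25.1 and 25.3 to 78.4 and 62.4 CPM, a log2 fold change of 1.40 ± 0.19 (adjusted p = 0.00019 in edgeR; 4.68% of genes called higher). In Pvalb-like nuclei it went from 22.2 and 21.2 to 75.1 and 47.9 CPM, a log2 fold change of 1.42 ± 0.22 (adjusted p = 0.0028 in edgeR; 2.31% of genes called higher). DG-like nuclei had 25.003, 22.7, 49.0 and 33.2 CPM and a log2 fold change of 0.72 ± 0.19 that missed the threshold (adjusted p = 0.055 in edgeR) and was called under 6 alternatives. In CA1-like nuclei the 4 levels, 16.8, 13.5, 14.4 and 18.9 CPM, overlapped. Oligodendrocyte- and OPC-like nuclei, where Derl3 was called, gave Derl1 log2 fold changes of 0.12 ± 0.23 and 0.50 ± 0.28 that were not called (adjusted p = 0.92 and 0.52 in edgeR).

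**Figure D4:**
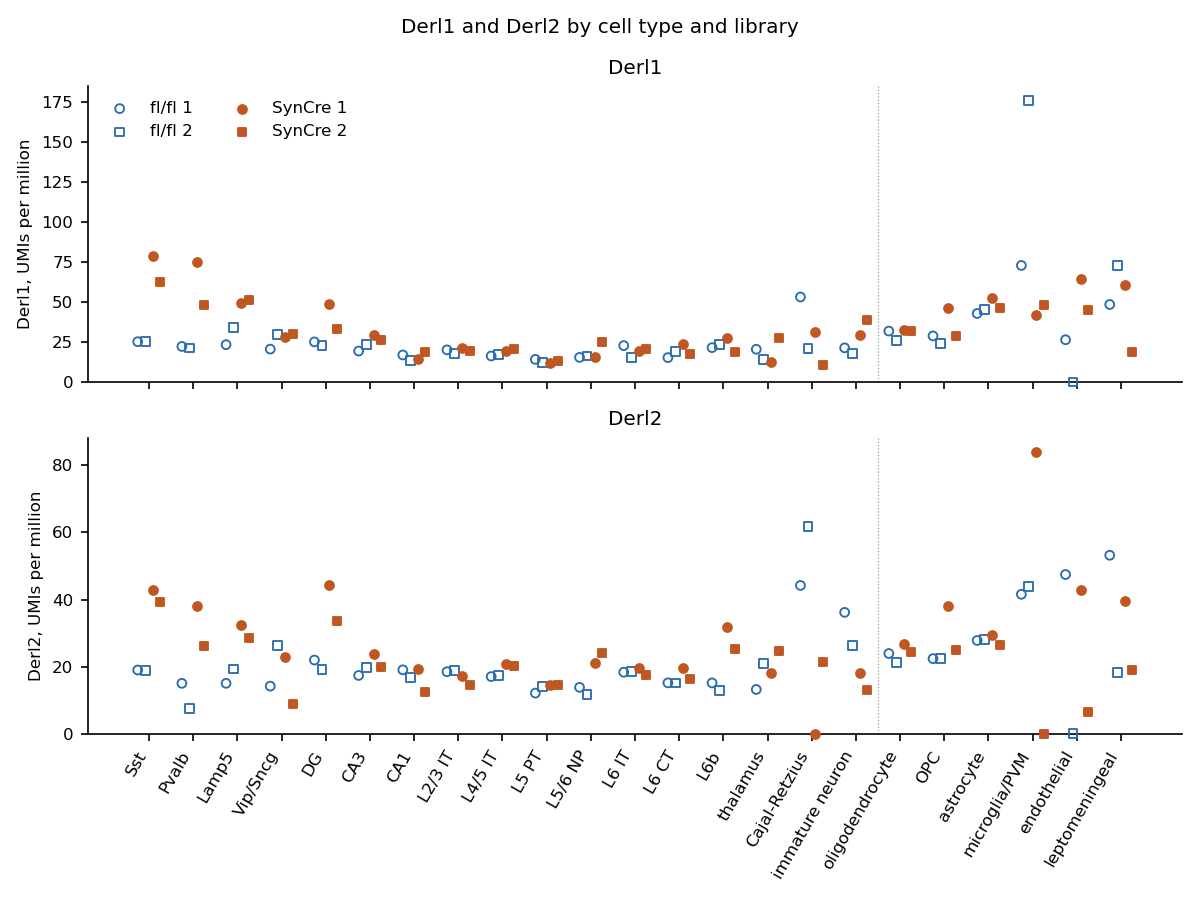
Derl1 and Derl2 levels (CPM) in each of the 4 libraries for the named types, 1 point per library. The SynCre points of both genes lie above the fl/fl points in the Sst-, Pvalb-, Lamp5- and DG-like types and overlap them in CA1-like nuclei.

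Unlike Derl3, Derl1 was present in every type of the fl/fl libraries, and its order there was not led by interneurons. The highest fl/fl means were in microglia- or perivascular macrophage-like nuclei (124 ± 73.0 CPM, SD, n = 2, from 11 UMIs), leptomeningeal-like (60.5 ± 17.3) and astrocyte-like nuclei (44.0 ± 1.87), and the lowest was in L5 PT-like nuclei (13.05 ± 1.501). The unnamed cluster with microglia markers had 54.2 ± 7.14 CPM in the fl/fl libraries, from 91 and 56 UMIs, and its log2 fold change of -0.04 ± 0.22 was not called (adjusted p = 0.98 in edgeR). Against CA1, Derl1 was higher in 5 types in the fl/fl libraries (astrocyte, DG, microglia or perivascular macrophage, oligodendrocyte and Sst). The microglia or perivascular macrophage type was led by the genes Mrc1 and F13a1, and its value rests on the 11 UMIs given above. In the SynCre libraries Derl1 was higher in 10 types. Each count is of 22 types and stands beside the 29.8% and 30.6% of all gene-by-type tests called in either direction. In the SynCre libraries Sst-like (70.4 ± 11.3 CPM) and Pvalb-like nuclei (61.5 ± 19.3) stood first and L5 PT-like nuclei (12.7 ± 0.933) again last.

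Derl2 too was called in few types. Over all neuron-like nuclei it had 1506, 1031, 1353 and 1158 UMIs, or 17.1, 16.9, 22.6 and 18.9 CPM, and a log2 fold change of 0.24 ± 0.12 that was not called (adjusted p = 0.48 in edgeR). It passed the filter in 18 types and was called higher in 3 and lower in 0, with a range of -0.25 to 1.37 and a median of 0.19. For all genes, 0.765% of gene-by-type tests were called higher. In Sst-like nuclei the Derl2 level went from 19.0 and 19.0 to 42.7 and 39.4 CPM, a log2 fold change of 1.03 ± 0.21 (adjusted p = 0.0050 in edgeR; 4.68% of genes called higher). Pvalb-like nuclei had 15.1, 7.48, 38.0 and 26.2 CPM and a log2 fold change of 1.37 ± 0.31 (adjusted p = 0.022 in edgeR; 2.31% of genes called higher). In DG-like nuclei 21.99 and 19.3 CPM became 44.5 and 33.5 CPM, with a log2 fold change of 0.85 ± 0.18 (adjusted p = 0.020 in edgeR; 1.86% of genes called higher). The DG call was lost without SynCre 1 (adjusted p = 0.133) and without fl/fl 2 (0.087), and the Pvalb call without fl/fl 2 (0.051). Both SynCre libraries were above both fl/fl libraries in 12 of the 23 types, beside 20% of all gene-by-type values. They were below in 3 types, beside 13.7% of all values; L2/3 IT-like nuclei were among the 3 (18.5, 18.8, 17.4 and 14.4 CPM) and none was called.

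In the fl/fl libraries, Derl2 was lower in Pvalb-like than in CA1-like nuclei by a log2 difference of -0.77 (adjusted p = 0.0033 in edgeR), and lower in L5/6 NP-like nuclei by -0.65 (adjusted p = 0.031). In the SynCre libraries Pvalb-like nuclei were above CA1 by 0.78 ± 0.21 (adjusted p = 0.0020 in edgeR). In those libraries Derl2 was also higher than in CA1 in DG-, OPC- and Sst-like nuclei. It was thus called in 4 of 22 types in the SynCre libraries and in 2 of 22 in the fl/fl libraries. For all genes, 30.6% and 29.8% of such gene-by-type tests were called in either direction, so these calls are not more frequent than for genes at large. The SynCre means of Derl2 were 41.1 ± 2.34 CPM in Sst-like, 39.0 ± 7.76 in DG-like and 32.1 ± 8.34 in Pvalb-like nuclei (SD, n = 2).

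The make-up of the family in a library was given as the share of Derl3 among its Derlin UMIs, a ratio that depth does not scale. In neuron-like nuclei it was 1.43% and 1.51% in the fl/fl libraries and 26.0% and 20.1% in the SynCre libraries, 1.47% ± 0.06 against 23.01% ± 4.15 (SD, n = 2 each). The difference of 21.5 percentage points had p = 0.333 in an exact two-sided permutation test, the smallest p that 2 libraries against 2 allow. In the SynCre libraries Derl3 made up 46.0% and 42.7% of Derlin UMIs in Sst-like, 43.4% and 38.2% in Pvalb-like and 41.2% and 35.7% in DG-like nuclei. In L5/6 NP-like nuclei it was 35.7% and 31.6%, in CA3-like 20.8% and 24.0% and in CA1-like 4.80% and 3.42%. Oligodendrocyte-like nuclei were uneven, with 40.7% in SynCre 1 and 10.8% in SynCre 2. The division of the remaining UMIs between Derl1 and Derl2 moved little in neuron-like nuclei: Derl1 had 51.6%, 52.0%, 53.4% and 55.0% of them.

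**Figure D5:**
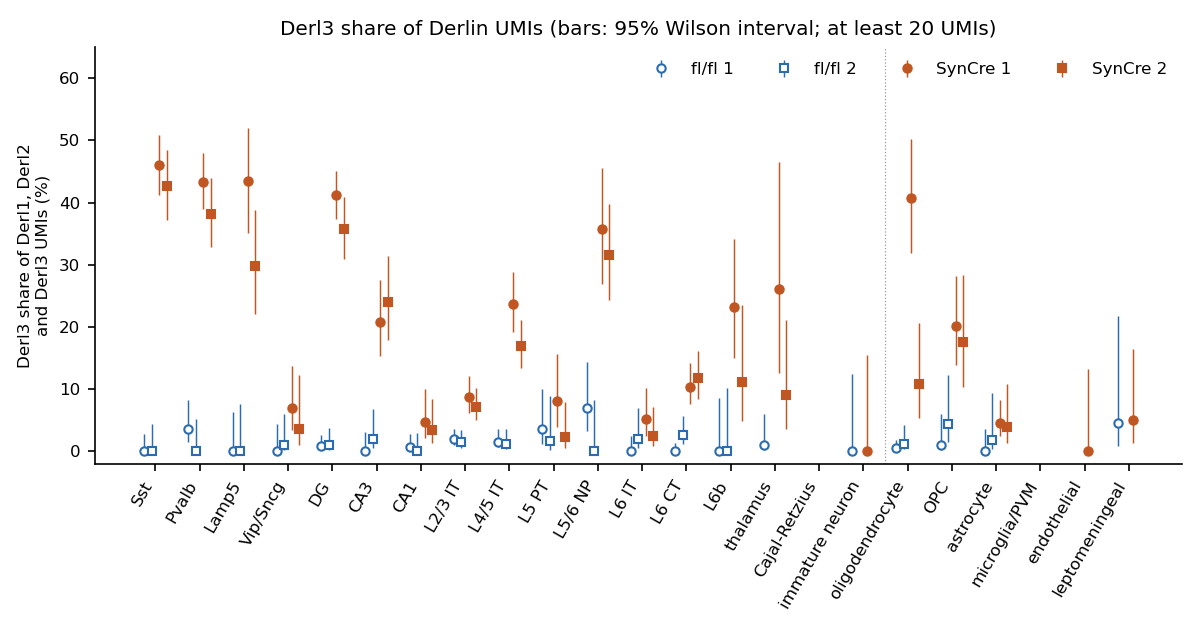
Derl3 as a percentage of all Derlin UMIs for each of the 23 named types and each library with at least 20 Derlin UMIs, 1 point per library. SynCre points reach 46.0% in Sst-like nuclei and lie at 4.80% and 3.42% in CA1-like nuclei, and no fl/fl point of these types exceeds 6.98%.

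Genes that act with the Derlins were counted over the 23 named types by lists, and beside these counts 0.765% of all gene-by-type tests were called higher and 0.56% lower. From these same libraries the study reported Derl3, Herpud1, Hspa5, Hsp90b1, Hyou1, Canx, Calr, Pdia3, Eif2ak3, Xbp1 and Ddit3 as raised. It reported Ern1, Atf6 and Atf4 as unchanged. What is counted for all of these genes here is no independent evidence. Of partners at the HRD1 complex (10 genes, 196 tests), 19 tests were called higher and 0 lower. Herpud1 accounted for 10 of them, Sel1l for 6, Syvn1, which encodes HRD1, for 2 (DG and Sst) and the lectin gene Os9 for 1. In neuron-like nuclei Herpud1 had 17.4, 20.5, 53.6 and 42.4 CPM (log2 fold change 1.30 ± 0.14, adjusted p = 0.027 in edgeR). Sel1l (0.55 ± 0.12) and Syvn1 (0.36) were not called there (adjusted p = 0.15 and 0.29 in edgeR). Of genes for p97 recruitment and extraction (12 genes, 237 tests), 7 were called higher and 0 lower, all of them Selenos (DG, L4/5 IT, Pvalb and Sst) or Selenok (DG, Pvalb and Sst). In Sst-like nuclei Selenos went from 15.3 and 16.8 to 49.2 and 47.9 CPM, a log2 fold change of 1.52 ± 0.21 (adjusted p = 0.00020 in edgeR).

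Relatives and alternatives of the Derlins gave few calls. Other rhomboid proteases and pseudoproteases (11 genes, 146 tests) had 0 higher and 1 lower, Rhbdl3 in DG-like nuclei, and other ubiquitin ligases of the ER membrane (12 genes, 200 tests) had 0 in either direction. Since only 0.765% of all gene-by-type tests were called higher and 0.56% lower, these counts do not set the 2 lists apart from genes at large. Factors of the unfolded protein response that could induce Derlins (11 genes, 209 tests) had 31 higher and 0 lower: Creb3l2 and Ddit3 in 8 types each, Xbp1 in 7, Eif2ak3 in 4, Atf6 in 2, and Atf4 and Ern1 in 1 each. The calls of Atf6, Atf4 and Ern1, in Sst-like and for Atf6 also in Pvalb-like nuclei, differ from the study, which reported these genes as unchanged. In neuron-like nuclei Ddit3, which encodes CHOP, had 5.27, 4.40, 22.5 and 17.3 CPM (log2 fold change 1.98 ± 0.18, adjusted p = 0.018 in edgeR). Creb3l2, an ER-bound transcription factor, had a log2 fold change of 1.32 ± 0.14 (adjusted p = 0.027 in edgeR). Other targets of ER stress (14 genes, 238 tests), chiefly chaperones, had 78 higher and 0 lower. All 14 were called in Sst-like and in Pvalb-like nuclei, 12 of 13 in DG-like, 9 of 13 in OPC-like, 5 of 12 in oligodendrocyte-like and 0 of 13 in CA1-like nuclei. Of all genes, 4.68%, 2.31%, 1.86%, 1.8%, 0.838% and 0.00778% were called higher in these types, in the same order. In CA1-like nuclei that is 1 of 12857 genes, so the 0 there does not set the list apart from genes at large. Sdf2l1 (2.54 ± 0.22), Hspa5 (1.32 ± 0.15) and Dnajc3 (1.11 ± 0.14) were called in neuron-like nuclei (adjusted p = 0.018, 0.035 and 0.038 in edgeR). The list's median log2 fold change was 2.40 in Sst-like, 2.08 in DG-like and 0.94 in neuron-like nuclei, where the median of all genes was 0.00035. The promoter windows of Hspa5, Hsp90b1, Calr, Creld2 and Dnajc3, of 12 genes of that list with a window, and of Syvn1 also held an ERSE, and that of Herpud1 held an ERSE-II.

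The pattern of each member was compared with that of 12967 genes over 92 sums of 23 types by 4 libraries, as a description over points that share libraries. The genes most like Derl3 were Hspa5 (Pearson r = 0.78), Hsp90b1 (0.76), Pdia4 (0.70), Sel1l (0.70) and Herpud1 (0.69). Those most like Derl1 were Eif2s2 (0.72), Rab11b and Snhg3 (0.71 each), and Scaf11 and Vcpip1 (0.70 each), and those most like Derl2 included 9530068E07Rik (0.78), Mus81 (0.77), Slc33a1 and Rlim (0.74 each). Between the members themselves r was 0.49 for Derl1 with Derl2, 0.41 for Derl2 with Derl3 and 0.35 for Derl1 with Derl3.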

How the data were processed

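Nuclei of cortex and hippocampus were sorted and sequenced with 10x Genomics 3′ v3 chemistry by the authors, who ran Cell Ranger 6.1.0 against GRCm38 (per the submitters' processing notes) and deposited raw UMI counts of 32286 features per nucleus. Whether introns were counted is not given in the sources used here. The libraries held 7366 to 12599 nuclei and 74082610 to 122870443 UMIs. Nuclei with 600 genes or fewer or 5% or more mitochondrial UMIs were left out, as were 418 to 1223 doublets per library (scanpy 1.11.5, the highest scores, at an expected rate of 5.78% to 9.89%).

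The libraries were integrated and clustered in Seurat 5.3.0 (2000 variable features after removal of the Derlin genes, 17 dimensions, resolution 0.2 for all, 1 for neurons and 0.6 for the rest), and clusters were named from lists of markers. Clusters that did not meet every rule for a name stayed unnamed. Among them were shallow nuclei led by Inpp5d and Arhgap45, which held 6 of 7 microglia markers. Shallow clusters also needed a marker among their 10 leading genes, and this cluster had 0. The cluster named thalamus-like also held markers of inhibitory neurons. UMIs were summed per library and type with at least 10 nuclei in every library, and tested in edgeR 4.0.16 (R 4.3.3; TMM, filterByExpr, quasi-likelihood F test, two-sided, prior count 0.125), with Benjamini-Hochberg adjustment over all genes tested in the type and a threshold of 0.05. SEs were derived as the fold change over the square root of F, and CPM are relative to all UMIs of the sum. On simulated counts for the Sst-like comparison (11866 genes), 104 of 108 genes changed by a log2 value of 2 and 64 of 92 changed by 1 were recovered, with 4 other genes called. Each library is 1 mouse, so p-values rest on 2 mice per label.

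Named genes were the members in every type, in each list the 4 with the largest fold change among those called in the neuron-like sum, Sel1l, Syvn1 and Herpud1, and the 5 genes most like each member by Pearson r (log2 of TMM CPM + 1) among those with a mean of at least 5; 1 gene is not reported here. Genes of the lists named by type are all those with a call. The members and the lists were chosen with earlier results of these data known. Promoters were taken from RefSeq, and no Derl1 window or Derlin protein was used here. Alternatives were DESeq2 1.42.0, its size factors, other filters, a prior count of 2, thinned sums, doublets retained, a minimum of 200 genes, Leiden clustering without integration, a replicate block and each library left out.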

Additional observations from a re-analysis of the deposited data

Results flagged for a closer look

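Cre RNA was counted in a library where the genotype label gives none. It had 411 UMIs in the library labelled Sel1L flox/flox 1, or 4.06 CPM, against 0 in Sel1L flox/flox 2 and, in Sel1L Syn-Cre 1 and 2, 236 and 222 UMIs (3.52 and 3.35 CPM). Neuron-like nuclei held 373 of the 411 UMIs. Derl3 in that library was 0.510 CPM in neuron-like nuclei, close to the 0.542 CPM of Sel1L flox/flox 2. The origin of the Cre RNA was not tested.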

How the results depend on the processing

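No result changed direction. Of the values for single genes that could be tested under an alternative, 305 were on the same side of the threshold, 24 newly passed it and 7 no longer did. Calls lost because a gene fell below the filter are not in this tally, such as Derl3 in oligodendrocyte-like nuclei without Sel1L Syn-Cre 1. By type, Derl1 and Derl2 entered it only where they were called and in DG-like nuclei. A fit without 1 library keeps 1 library of that label, so the spread within that label is not measured. Without 1 library in turn, Derl3 was called in 8 to 11 types, Derl1 in 2 to 3 and Derl2 in 1 to 3, and the neuron-like log2 fold changes ran from 4.24 to 4.97, 0.26 to 0.47 and 0.07 to 0.37. Without Sel1L flox/flox 2, Derl2 was called in 1 type. DESeq2 also called Derl2 in 1 type, Pvalb-like, with adjusted p = 0.059 in DG and 0.082 in Sst, and the cause was not tested. No genotype-by-type term of Derl3 was called with a library left out (0 to 0), and 1 was called when genes with few counts were not filtered (Sst, adjusted p = 0.028 in edgeR); the cause was not tested. The difference in the share of Derl3 among Derlin UMIs ran from 18.6 to 24.5 points without 1 library. The difference in nuclei with a Derl3 UMI was 2.46 to 3.25 points without 1 library, 5.30 points at 4000 UMIs per nucleus and 10.3 without thinning, against 2.85 at 2000, since more UMIs were drawn per nucleus.

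Libraries of different labels share replicate numbers, but the correlation of their deviations in neuron-like nuclei was 0.24, and 0.08 without sex-linked genes. The labels give no shared litter or batch for a number, but it coincides with the Xist pattern, so the replicate block is also a block by sex. With the replicate block, Derl3 was called in 11 types and Derl1 and Derl2 in 3 each, and 105 genes were called in neuron-like nuclei against 28 without it. DESeq2 called 441 genes there, no filter 230, leaving out Sel1L flox/flox 1 427 and leaving out Sel1L flox/flox 2 896. With at least 10 counts in every library, Derl3 could be tested in no single type. With 2 mice per label, no Derlin had enough UMIs for a test in Cajal-Retzius-, immature neuron-, endothelial- and microglia- or perivascular macrophage-like nuclei.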
